A study of Mus musculus with 3 samples.

Results

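Ring1B peaks of mouse neural progenitor cells that lie close to 1 to 3 neighbours form small clusters, and these are described here. Neighbouring Ring1B peaks on a chromosome were joined into a chain wherever the gap between them was at most 5000 bp, and all chains of 2, 3 or 4 peaks were kept. This gave 1078 chains with 2443 peaks, which is 20.7% of the 11790 Ring1B peaks. Of the rest, 8915 were lone peaks with no neighbour within 5 kb, and 432 lay in 61 chains of 5 or more. The members were chosen by the positions of the Ring1B peaks alone, so the gaps, spans and widths of those peaks are given below as a description. Zrf1 peaks, from a separate library, played no part in the choice.

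The series holds 3 chromatin immunoprecipitation sequencing (ChIP-seq) libraries, 1 each with an antibody against Ring1B, an antibody against Zrf1 and rabbit IgG. All came from neural progenitors made from the mouse embryonic stem cell line E14TG2a and kept in N2 medium that held EGF and FGF2. The Ring1B and the Zrf1 antibody were made in the submitters' laboratory. With 1 library per antibody no value carries an error between samples, and the intervals do not show the read depth. No test of a difference between classes of peaks was therefore run. The 95% intervals beside shares are exact binomial ones (Clopper-Pearson). They cover only counting error and treat neighbouring peaks as independent. Peak lists hold no expression values, so the identity of the cells was not checked against marker genes. Genes, promoters and DNA sequence in the chains were not analysed here.

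Polycomb repressive complex 1 helps to keep developmental genes silent, and Ring1B (gene Rnf2) is its catalytic subunit, which attaches ubiquitin to histone H2A. In stem and progenitor cells the complex is known to gather at CpG-rich promoters and to spread over neighbouring sequence at some developmental regulators. Zrf1 (gene Dnajc2) is a chaperone-related protein known to bind ubiquitylated H2A. The design compared where the 2 proteins bind in these cells. For the chains, that question becomes which of several neighbouring Ring1B peaks also carried a Zrf1 peak.

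Some chains lay almost wholly under both proteins, and others of similar length carried no Zrf1 peak at all. The chains in this and the next paragraph were taken by rank, with positions in the mouse build mm9 as deposited. The chain with the most sequence under both proteins was on chromosome 6 from 47687021 to 47728897. Its 4 Ring1B peaks covered 37.7 kb of 41.9 kb, 8 Zrf1 peaks lay on 3 of them, and 86.9% of the Ring1B sequence was also under Zrf1. Its widest Ring1B peak measured 23645 bp, while the widest lone peak measured 12044 bp and the widest in chains of 5 or more 12813 bp. The IgG library was not analysed here, so background signal at this chain was not checked. The next was on chromosome 1 from 172993430 to 173016421, the 1 chain of 4 in which all 4 Ring1B peaks overlapped Zrf1. There the Ring1B peaks were 4192, 4794, 4517 and 731 bp wide, and the Zrf1 peaks on them, in the same order, 3867, 7101, 4676 and 632 bp. Each Ring1B peak thus had a Zrf1 peak of its own, and 96.9% of the 14.2 kb of Ring1B sequence was under Zrf1. Then came a pair on chromosome 10 from 80638686 to 80646190, a chain of 3 on chromosome 11 from 117819095 to 117831886 and a further pair on chromosome 10 from 79621088 to 79629083. Zrf1 covered 79.5%, 62.7% and 75.9% of their Ring1B sequence. In both pairs each Ring1B peak had a separate Zrf1 peak. In the chain of 3, the outermost peak on the left, 1033 bp wide and 3559 bp from its neighbour, had none.

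**Figure D1:**
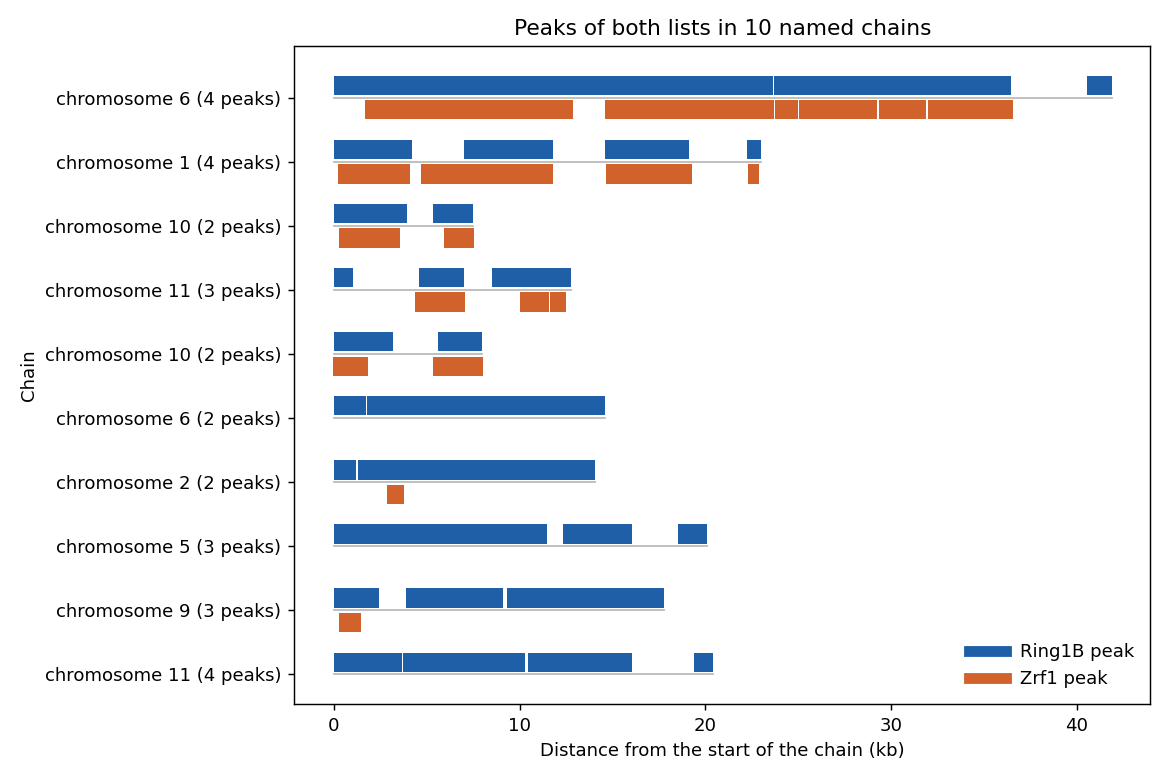
Positions of Ring1B peaks (upper bars) and Zrf1 peaks (lower bars) in 10 chains, as distance in kb from the start of each chain; the shortest gaps are thinner than a drawn line. The top 5 chains are those with the most sequence under both proteins, the lower 5 are leading chains by Ring1B-covered sequence, and 3 of these show no Zrf1 bar.

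The chains with the most Ring1B-covered sequence were about as often without Zrf1 as other chains. Of the 5 leading chains of each size, 12 of 15 held no Ring1B peak on Zrf1, beside 773 of all 1078 chains (71.7%). Among pairs, the longest cover was on chromosome 6 from 47600382 to 47615005, where peaks of 12861 and 1720 bp lay 42 bp apart and the nearest Zrf1 peak was 73.7 kb away. A pair on chromosome 2 from 73106279 to 73120357 covered 13.9 kb and carried 1 Zrf1 peak, over 6.47% of its Ring1B sequence. Among chains of 3, the leader was on chromosome 5 from 106880140 to 106900216, with 16.7 kb under Ring1B and the nearest Zrf1 peak 81.9 kb away. The second, on chromosome 9 from 62979423 to 62997203, covered 16.1 kb and had 1 peak on Zrf1. After the chromosome 6 chain above, the leading chains of 4 began with one on chromosome 11 (85642759 to 85663188) and one on chromosome 2 (38192379 to 38213382). These were followed by chains on chromosome 12 (58635857 to 58653078) and chromosome 17 (86006743 to 86025993). The 4 chains covered 15.3 to 16.9 kb each, and 0 of their 16 peaks overlapped Zrf1, beside 29 of the 248 peaks in all chains of 4 (11.7%). This count leaves out the leading chain of 4, on chromosome 6, which had 3 of its 4 peaks on Zrf1. Of all chains of 4, 44 of 62 (71.0%) held no peak on Zrf1.

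Long Ring1B chains were also found far from any Zrf1 peak. No Zrf1 peak lay within 100 kb of 196 chains (18.2%, 95% interval 15.9 to 20.6%), against 22.3% of the lone peaks (1990 of 8915). The chain with the most covered sequence among the 196 was on chromosome 10 from 50611545 to 50631236, with 3 peaks over 14.9 kb and the nearest Zrf1 peak 900 kb away. The next, on chromosome 11 from 21892486 to 21905839, was a pair of 9267 and 4074 bp separated by 12 bp, 380 kb from Zrf1. The others were chains of 3, one on chromosome 13 (48752373 to 48765394) and a couple on chromosome 5 (29794299 to 29806548, and 42145555 to 42160228), with 11.6 to 12.8 kb covered. The last of these lay 2013 kb from the nearest Zrf1 peak.

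Most chains were pairs. There were 853 chains of 2 peaks (79.1%), 163 of 3 (15.1%) and 62 of 4 (5.75%). The median chain spanned 4884 bp (quartiles 2931 and 7150 bp), of which a median of 77.0% was under Ring1B. The covered sequence had a median of 2690 bp in pairs, 5141 bp in chains of 3 and 6806 bp in chains of 4. Single peaks in the chains had a median width of 1333 bp (quartiles 972 and 1924 bp), close to the 1314 bp of lone peaks. Peaks of a pair were unequal, with medians of 1631 bp for the wider and 1011 bp for the narrower. Together the chains covered 4.14 Mb. The share of Ring1B peaks that lay in such chains ran from 15.0% on chromosome 18 to 25.4% on the X chromosome, and every chromosome with Ring1B peaks had at least 13 chains.

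The gaps inside the chains were mostly short. Their median was 710 bp (quartiles 161 and 2421 bp, 1365 gaps), 250 gaps (18.3%) were at most 100 bp, and 604 (44.2%) at most 500 bp. Beyond about 1 kb the number of gaps fell slowly and passed the chaining limit without a step: 152 gaps of the whole Ring1B list measured 4 to 5 kb and 151 measured 5 to 6 kb. The longest gap joined was 4988 bp and the shortest not joined 5002 bp. At the other limit, 62 chains held 4 peaks and 22 held 5.

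**Figure D2:**
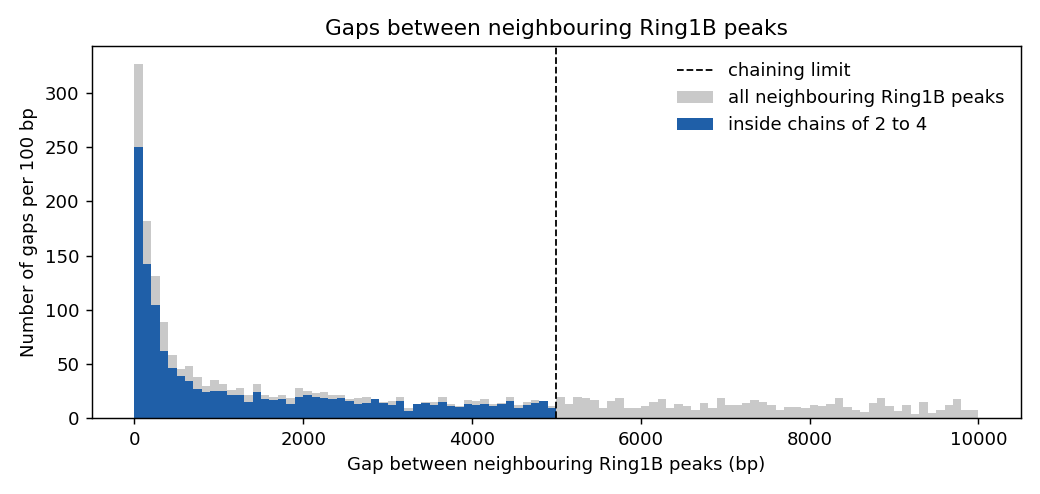
Number of gaps between neighbouring Ring1B peaks per 100 bp of gap length, for all neighbours (grey) and for neighbours inside chains of 2 to 4 (blue); the dashed line is the chaining limit of 5000 bp. The first bar, gaps of at most 100 bp, holds 250 gaps of the chains, and the number is nearly level on both sides of the limit.

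In the whole Ring1B list 16.6% of the peaks overlapped a Zrf1 peak by at least 1 bp, and in the chains 366 of 2443 did (15.0%, 95% interval 13.6 to 16.5%). The share was 16.0% in pairs (273 of 1706), 13.1% in chains of 3 (64 of 489) and 11.7% in chains of 4 (29 of 248), and the intervals of the 3 sizes overlapped. Lone peaks gave 17.5% and chains of 5 or more 6.94%. Lone peaks were also above chained peaks at 50% coverage (14.5% against 11.5%) and with the central 200 bp of both lists (10.3% against 7.57%). With a Zrf1 peak within 1 kb counted, the order reversed, at 20.0% of chained and 18.6% of lone peaks. The intervals then overlapped, and 1 Zrf1 peak can count for close neighbours under that rule. Counted by chain, 305 of 1078 held at least 1 peak on Zrf1 (28.3%, 95% interval 25.6 to 31.1%), against 18.7% of all Ring1B chains with lone peaks included. That share differed little between sizes, at 27.8% of pairs, 30.7% of chains of 3 and 29.0% of chains of 4. A chain has more peaks than a lone peak, so the shares of chains and of lone peaks with any Zrf1 are not like for like. Counted by peak with the rule of at least 1 bp, the chains were not above lone peaks. The point values by peak were lower in longer chains, while those by chain stayed within 3 percentage points of each other.

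**Figure D3:**
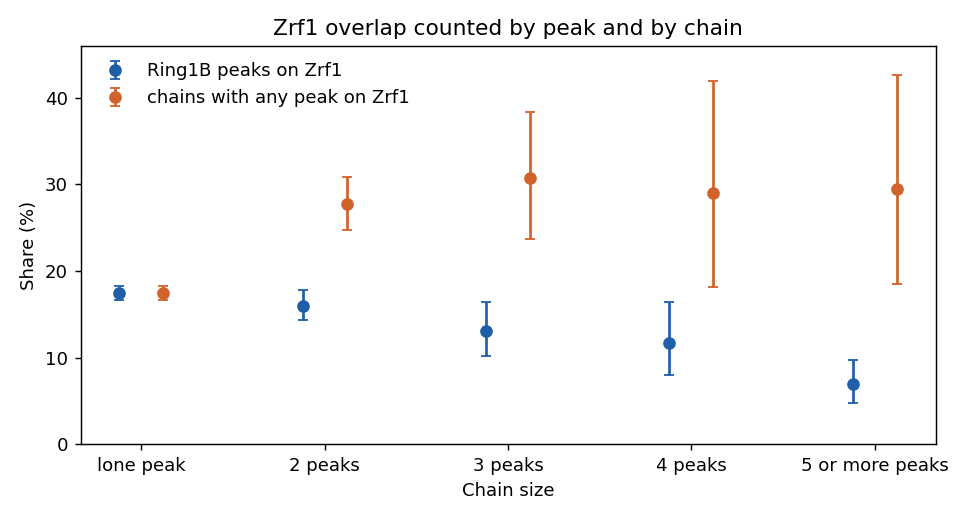
Share of Ring1B peaks on Zrf1 (blue) and share of chains with any peak on Zrf1 (orange) in percent, by chain size, with exact 95% binomial intervals. From lone peaks to 4 peaks the blue points go from 17.5% to 11.7%, while the orange points lie between 27.8% and 30.7% for chains of 2 to 4.

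Chains with Zrf1 mostly had it on 1 peak. The number expected from the low share of peaks on Zrf1 was not computed. Of the 237 pairs with any Zrf1, 201 had it on 1 peak and 36 on both (15.2%, 95% interval 10.9 to 20.4%). Over all pairs, the partner was on Zrf1 for 72 of 273 peaks on Zrf1 (26.4%, 95% interval 21.2 to 32.0%). For peaks not on Zrf1 it was 201 of 1433 (14.0%, 95% interval 12.3 to 15.9%). Each pair entered these counts from both sides, so the intervals are too narrow. In 13 of the 36 pairs with both peaks on Zrf1, a single Zrf1 peak lay over both Ring1B peaks. Shares without those pairs are given by gap below. Of the 50 chains of 3 with Zrf1, 36 had it on 1 peak, 14 on 2 and 0 on all 3. A count of 0 of 163 allows a share of up to 1.84% by the rule of 3 counts of the total, and the exact interval reaches 2.24%. Of the 18 chains of 4 with Zrf1, 11 had it on 1 peak, 4 on 2, 2 on 3 and 1 on all 4. In numbers of Zrf1 peaks, 257 of the 305 chains carried exactly 1 and 48 carried 2 or more.

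In chains of 3 or 4 the widest peak carried Zrf1 more often than its narrower neighbours. Of the widest peaks 47 of 225 overlapped Zrf1 (20.9%, 95% interval 15.8 to 26.8%), and of the others 46 of 512 (8.98%, 95% interval 6.65 to 11.8%). In chains of 3 the shares were 22.7%, 10.4% and 6.13% from the widest to the narrowest peak. Chains of 4 showed no such order, at 16.1%, 8.06%, 9.68% and 12.9%. In pairs the wider peak (16.6%) and the narrower peak (15.4%) hardly differed. Wider intervals also meet a peak of the other list more often by their length alone. Place in the chain made little difference: 11.1% of inner peaks (32 of 287) and 13.6% of outer peaks (61 of 450) of chains of 3 or 4 were on Zrf1.

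The share of chained peaks on Zrf1 was below that of lone peaks where the nearest Ring1B peak was within 1 kb, and near it from 1 to 5 kb. The limits of 500 bp and 1 kb used here were set after the lists had been seen. Among chained peaks with another Ring1B peak at most 500 bp away, 129 of 1143 overlapped Zrf1 (11.3%, 95% interval 9.51 to 13.3%). From 500 bp to 1 kb, 32 of 263 did (12.2%, 95% interval 8.47 to 16.7%). Among those whose nearest Ring1B peak was over 1 kb away, 205 of 1037 did (19.8%, 95% interval 17.4 to 22.3%). Lone peaks gave 17.5% (95% interval 16.7 to 18.3%). The interval for at most 500 bp lay below that of lone peaks, the one from 500 bp to 1 kb met its lower end, and the one over 1 kb overlapped it.

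The lower share by peak beside a very close neighbour was also found among peaks of like width. Peaks with a neighbour at most 500 bp away had a median width of 1247 bp, against 1444 bp for those over 1 kb away. Among peaks over 1 kb and up to 2 kb wide, the shares on Zrf1 were 11.6% (61 of 528) and 18.2% (103 of 565), beside 17.5% of lone peaks of that width (937 of 5352). By distance to the nearest Ring1B peak, the share over all widths was 13.4% up to 100 bp, 9.66% from 100 to 500 bp, the 12.2% given above from 500 bp to 1 kb, 17.6% from 1 to 2 kb and 20.8% from 2 to 5 kb. Among lone peaks it was 20.4% from 5 to 10 kb and 20.7% from 10 to 20 kb, and it was 14.4% beyond 100 kb. The share thus passed the chaining limit without a step, and its point values were highest where the nearest Ring1B peak lay 2 to 20 kb away, though those intervals overlapped the ones at 1 to 2 kb and 20 to 50 kb.

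**Figure D4:**
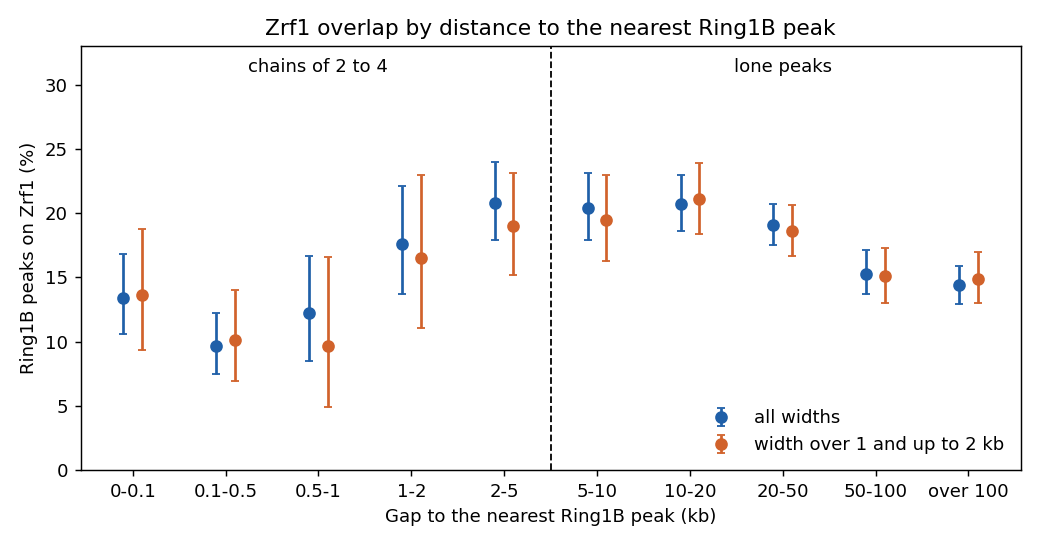
Share of Ring1B peaks on Zrf1 in percent, by the gap to the nearest Ring1B peak in kb, for all widths (blue) and for peaks over 1 and up to 2 kb wide (orange), with exact 95% binomial intervals; the dashed line divides chains of 2 to 4 from lone peaks. The blue points lie between 9.66% and 13.4% below 1 kb and between 17.6% and 20.8% from 1 to 20 kb. Peaks in chains of 5 or more are not shown.

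Pairs showed the same contrast between close and far neighbours when each pair was counted once. Of the 386 pairs with a gap of at most 500 bp, 76 had any Zrf1 (19.7%, 95% interval 15.8 to 24.0%), which is near the share of a lone peak. Of the 382 pairs with a gap over 1 kb, 139 did (36.4%, 95% interval 31.6 to 41.4%). The 85 pairs in between gave 25.9% (95% interval 17.0 to 36.5%). The far pairs also had more Ring1B-covered sequence, a median of 2910 bp against 2476 bp. Among pairs that covered over 2 and up to 3 kb, the shares were 23.4% (39 of 167) for close and 35.7% (56 of 157) for far pairs, and lone peaks of that width gave 23.5% (237 of 1008). Counted by pair at that length, close pairs were thus about level with lone peaks, unlike in the count by peak. The intervals of those close and far pairs, 17.2 to 30.5% and 28.2 to 43.7%, overlapped.

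Where both peaks of a pair carried Zrf1, the form differed with the gap. In 13 of the 17 such close pairs a single Zrf1 peak lay over both Ring1B peaks. In all 19 such far pairs each Ring1B peak had a separate Zrf1 peak. A single Zrf1 peak must be wider than the gap to touch both Ring1B peaks. Zrf1 peaks on the chains had an upper quartile of width of 1509 bp, so few could do this in far pairs. The contrast in form is therefore limited beforehand by the gap itself. Peaks of a close pair were more often alike in their Zrf1 status, mainly in the pairs under a single Zrf1 peak. In close pairs the partner was on Zrf1 for 36.6% of the peaks on Zrf1 (34 of 93) and for 8.69% of those not on Zrf1. Without the 13 pairs under a single Zrf1 peak these shares were 11.9% (8 of 67) and 8.69%. In far pairs they were 24.1% (38 of 158) and 19.8% (120 of 606). The intervals of the shares in far pairs, 17.6 to 31.5% and 16.7 to 23.2%, overlapped. Each pair entered these partner shares from both sides.

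Zrf1 lay on the Ring1B peaks of a chain and seldom in the sequence between them. Zrf1 covered 10.4% of the Ring1B-covered bases of the chains, or 9.70% without the chromosome 6 chain named first, and 12.9% in lone peaks. It covered 1.16% of the bases in the gaps, with 2.18% in gaps of at most 500 bp and 1.13% in gaps over 1000 bp. Outside each outer edge it covered 1.68% of the first 1000 bp and 1.10% of the 5 kb. In 111 of the 1365 gaps a Zrf1 peak reached in from a Ring1B peak or lay in the gap. A Zrf1 peak that touched no Ring1B peak was found in 3 gaps only, namely in a chain of 3 on chromosome 4 (151493162 to 151506711) and in a couple of pairs on chromosome 8 (72405041 to 72413629, and 74194740 to 74200891). Those gaps measured 3747, 3480 and 4169 bp, and the Zrf1 peaks in them 624, 909 and 858 bp. Many gaps are shorter than a Zrf1 peak and could not hold one: 612 of the 1365 were over 1 kb.

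**Figure D5:**
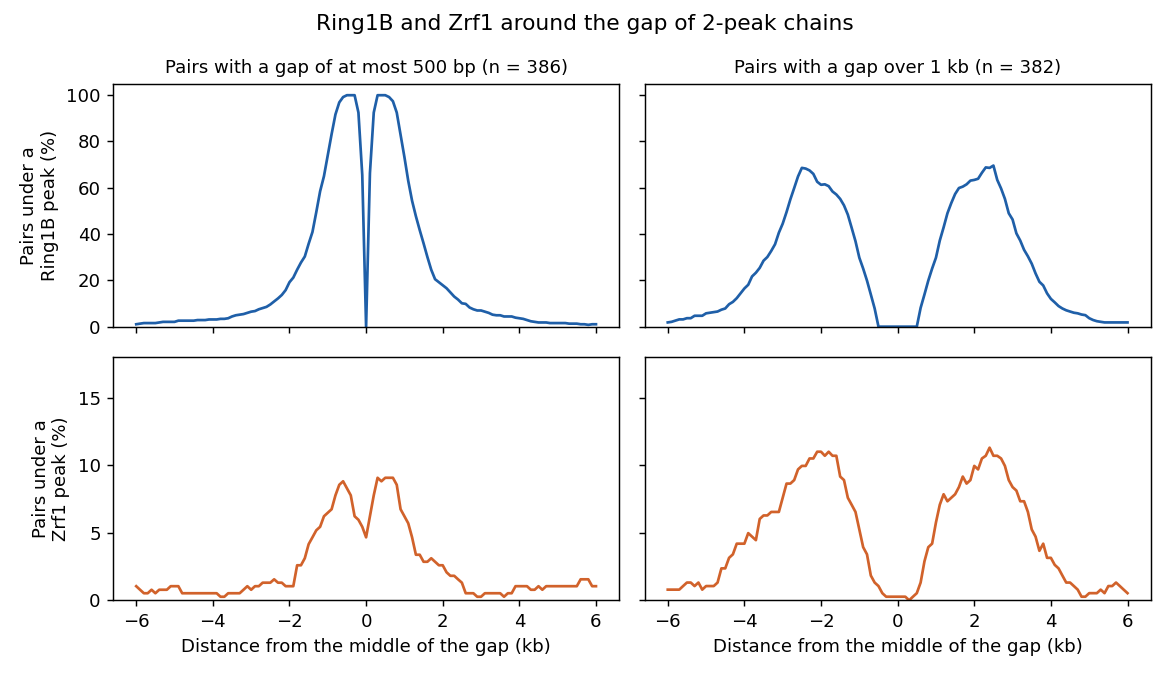
Percent of 2-peak chains under a Ring1B peak (top) and under a Zrf1 peak (bottom), by distance in kb from the middle of the gap, for 386 pairs with a gap of at most 500 bp (left) and 382 with a gap over 1 kb (right). Ring1B is at 0 in the middle by construction; Zrf1 there is at 4.66% in close pairs and 0.262% in far pairs, and in far pairs at 2 kb to either side it is at 11.0% and 9.95%.

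Within the peaks, Zrf1 was centred less closely than on lone peaks. Over the 385 overlapping pairs of a chained Ring1B peak and a Zrf1 peak, the distance between centres had a median of 215 bp and quartiles of 90.0 and 488 bp. For lone peaks the median was 156 bp and the quartiles 65.0 and 338 bp. The overlaps in chains count 19 Zrf1 peaks on each of 2 neighbouring Ring1B peaks, and such a peak cannot be centred on both. The largest distance was 8892 bp in chains and 2196 bp on lone peaks. The medians were not computed without these cases. In close pairs the Zrf1 centre lay on the partner's side of the Ring1B centre in 65 of 95 overlaps, but in 39 of 67 once the 13 pairs under a single Zrf1 peak were left out whole. In far pairs it did so in 76 of 163. Of the 366 Zrf1 peaks on the chains, 176 lay wholly inside a Ring1B peak, and 38 Ring1B peaks lay wholly inside a Zrf1 peak.

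The Zrf1 peaks on the chains were similar in width to those on lone Ring1B peaks. They more often had Zrf1 neighbours, mostly on the same Ring1B chain. Their widths had a median of 1111 bp, with quartiles of 874 and 1509 bp. The median was 1086 bp on lone Ring1B peaks and 754 bp where no Ring1B peak was overlapped. In the whole Zrf1 list 14.1% of the peaks had another Zrf1 peak within 5 kb. On the chains this was 111 of 366 (30.3%, 95% interval 25.7 to 35.3%), and on lone Ring1B peaks 183 of 1580 (11.6%, 95% interval 10.0 to 13.3%). Of the 111, 92 shared their Ring1B chain with another Zrf1 peak. Lone Ring1B peaks have by the rule no second Ring1B peak within 5 kb, so the shares on chains and on lone peaks are not like for like. Without the chromosome 6 chain named first, the share on chains was 28.8% (103 of 358). In chains that carried exactly 1 Zrf1 peak, 19 of 257 (7.39%, 95% interval 4.51 to 11.3%) had a Zrf1 neighbour. Such chains hold by definition no second Zrf1 peak, so this share is not comparable with that of lone Ring1B peaks. On Ring1B chains of 5 or more, 16 of 30 Zrf1 peaks (53.3%, 95% interval 34.3 to 71.7%) had a Zrf1 neighbour.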

How the data were processed

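ChIP-seq peak lists for Ring1B and Zrf1 from neural progenitors were used, assigned to their libraries by the antibody in the list's name. The authors deposited each as chromosome, start and end, with neither scores nor gene names. Per the submitters' processing notes, Bowtie 0.12.7, MACS 1.4.2 and build mm9 were used; the sources used here give no threshold, control or filter for the peak calls. The IgG library was not analysed here.

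Peaks were chained at gaps of at most 5000 bp, and a Ring1B peak was on Zrf1 if they shared at least 1 bp. Width is end minus start. The members, lists and tests were chosen with earlier results of these data known. Regions were named by rank: the 5 chains of each size with the most Ring1B-covered sequence, the 5 with the most bases under both proteins, all chains of 4 with 4 peaks on Zrf1, and the 5 with the most covered sequence over 100 kb from Zrf1. The 3 chains with Zrf1 in a gap were named after their values were seen. Planned counts of gene starts, gene lists and base composition were not run, since the gene table at hand is of another assembly.

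Whether neighbouring intervals are parts of broader enrichment was not tested, since the lists hold no signal; merging peaks at most 100 bp apart gave 930 chains in place of 1078. The code was tested on simulated data, where 5000 of 5000 planted chains were recovered with their size and Zrf1 count. Most of these were lone peaks, as the 5000 held 6293 Ring1B peaks. Each planted Zrf1 peak lay inside a single Ring1B peak. Zrf1 peaks over neighbouring Ring1B peaks or in gaps were therefore not simulated. Python 3.11.15, NumPy 2.4.6, SciPy 1.17.1, pandas 2.3.3 and matplotlib 3.10.9 were used.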

Additional observations from a re-analysis of the deposited data

How the results depend on the processing

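Of 51 values recomputed under other settings, 36 stayed within the binomial interval of the reported value (counts within 1.5 times) and 15 moved. All values for autosomes, without chromosome ends, with Ring1B peaks at most 100 bp apart merged, and without the chain with the most covered sequence stayed. With gaps up to 2 kb, 12.1% of chained peaks and 22.6% of chains were on Zrf1, and 0 of 862 chains held Zrf1 in a gap, which allows up to 0.348% by 3 counts of the total (exact limit 0.427%); gaps up to 10 kb gave 2.98% for the last, since longer gaps enter. At 50% coverage, 11.5% of peaks, 22.5% of chains and 30.6% of far pairs were on Zrf1, and 10.8% of pairs with Zrf1 had it on both peaks. Within 1 kb the peaks gave 20.0%, above the 18.6% of lone peaks, so that order reversed; 43.9% of pairs with Zrf1 then had it at both peaks, since 1 Zrf1 peak can count for close neighbours. With central 200 bp the values were 7.57% of peaks, 15.6% of chains, 6.62% of pairs with both, 10.4% of close and 22.0% of far pairs, as smaller intervals entered. Far pairs stayed above close pairs in each of the 7 settings tried, chosen after seeing the data. Since depth is unknown, a position without a peak may still be bound.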

Other observations

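The share of chained Ring1B peaks on Zrf1 varied between chromosomes. It was highest on chromosome 15 (25.5%, 26 of 102, 95% interval 17.4 to 35.1%) and chromosome 8 (24.8%, 37 of 149, 95% interval 18.1 to 32.6%). Lone peaks there gave 22.1% and 19.5%. Among autosomes it was lowest on chromosome 14 (6.58%, 5 of 76, 95% interval 2.17 to 14.7%), where lone peaks gave 16.6%. On chromosome 7 it was 9.04% (15 of 166) beside 20.3% of lone peaks, while on chromosome 9 it was 21.3% (29 of 136) beside 12.3%. The chained peaks had a lower share than lone peaks on 14 of 20 chromosomes and a higher one on 6. Chromosomes are not replicates, and these differences were not tested.

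Among the 14 chains of 3 with Zrf1 on 2 peaks, the free peak was the middle one in 6, the last by coordinate in 3 and the first in 5. By covered sequence, 24.4% of the chains in the lowest quartile of Ring1B-covered sequence (66 of 270) and 28.9% of those in the highest (78 of 270) held any Zrf1, with 33.1% in the quartile just below the highest (89 of 269).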
